A study of Mus musculus with 55 samples.

Results

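Spermine oxidase, encoded by Smox, and 8 other genes of polyamine metabolism were followed through pyramidal neurons of the mouse prefrontal cortex, each sequenced on its own. The 9 genes were chosen by symbol (Smox, Sat1, Odc1, Srm, Sms, Oaz1, Oaz2, Azin1 and Amd1) from the 22800 symbols of the gene count table, and each was found there. Smox was picked because its level was higher in wild-type D1 than in wild-type D2 cells, so that contrast is given as a description. The cytosol of each neuron was drawn through a patch pipette and its total RNA sequenced. The knockout mice were Fmr1-/y, a model of fragile X syndrome that lacks the RNA-binding protein FMRP. The groups were 6 knockout D1 cells aged 31 or 32 days, 7 knockout D2 cells aged 32 days, 15 wild-type D1 cells aged 28 to 34 days and 26 wild-type D2 cells aged 29 to 35 days. The sources used here give neither the strain nor the way in which D1 and D2 cells were told apart, and the labels call the wild-type cells only free of the knockout.

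Polyamines (putrescine, spermidine and spermine) are small positively charged molecules of every cell. Ornithine decarboxylase makes putrescine, S-adenosylmethionine decarboxylase supplies the aminopropyl groups, and spermidine and spermine synthase add them in turn. Antizymes send ornithine decarboxylase to the proteasome, and the antizyme inhibitor releases it. Spermine oxidase turns spermine directly back into spermidine and gives off hydrogen peroxide and an aldehyde, while the acetyltransferase encoded by Sat1 tags spermidine and spermine for export or for oxidation by Paox. In neurons intracellular spermine blocks inwardly rectifying potassium channels of the Kir2 family and calcium-permeable AMPA receptors.

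No animal is named for any cell, so each group was treated as 1 sample and no test was possible. SDs describe the spread between cells, and differences are descriptions of these cells. Total counts per cell were 2764998 to 9680476 in the knockout groups and 260943 to 10673072 in the wild-type groups. All 6 knockout D1 and 6 of 7 knockout D2 cells were gene-rich, here meaning a read in at least 4000 genes, against 9 of 15 wild-type D1 cells and 13 of 26 wild-type D2 cells. Fmr1 was read in 0 of 6 knockout D1 cells and in 0 of 7 knockout D2 cells, which allows a share of cells of up to 45.9% and 41%, and was read in 8 of 15 wild-type D1 cells and 13 of 26 wild-type D2 cells. Each cell had a read of at least 1 of 6 pyramidal neuron markers. Each also had a read of at least 1 of 12 markers of microglia, the immune cells of the brain. Such counts therefore do not tell cell types apart. Drd1, the receptor after which D1 cells are named, was read in 0 of 6 knockout D1, 3 of 7 knockout D2, 4 of 15 wild-type D1 cells and 2 of 26 wild-type D2 cells, and Drd2 in none of the 54. D1 and D2 are therefore used as the labels give them. The label for side divided the cells exactly as the D1 and D2 labels did, so the effects of both cannot be told apart.

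Smox lies on chromosome 2 (131491496 to 131525922, plus strand, GRCm38). Part of its promoter, as placed by the RefSeq start, is shown because Smox is the gene on which the comparisons turn. The 110 bases below (chr2:131491654-131491763, plus strand, RefSeq, GRCm38.p6) lie within the 250-base window upstream of the RefSeq start and leave out bases that GENCODE places in an exon. GENCODE starts the gene at 131491496, ahead of this window. The stretch therefore lies inside the GENCODE gene, outside its exons, and is a promoter by the RefSeq start only. Capitals mark GC boxes, searched as GGGCGG on both strands.
Smox promoter: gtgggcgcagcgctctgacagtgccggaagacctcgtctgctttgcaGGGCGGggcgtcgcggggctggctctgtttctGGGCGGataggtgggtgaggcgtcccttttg
The stretch holds 2 GC boxes and the whole window 6. The window is 68% G or C, against a median of 52.4% over 32851 promoters of the same length. A GC box was found in 6 of the 7 genes with an entry in the promoter table (Smox, Sat1, Odc1, Sms, Oaz2 and Amd1, but not Oaz1) and in 32.7% of all promoters. The E-box CACGTG was found in Sms alone among the 7, against 6.02% of promoters. Neither TATAAA (12.4% of promoters) nor TGACGTCA (1.55%) was found in any of the 7. The motifs were searched on both strands and do not overlap one another in sequence. A gene counted as having a motif if any of its promoters had it. The shares are of single promoters, so they are not of the same unit as the counts of genes.

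Smox was read in few cells, most often in D1 cells of both genotypes, and its level varied widely between cells of 1 group. The level is given in CPM, a count divided by the total of its cell and scaled alike in all cells. In the 6 knockout D1 cells Smox stood at 0, 0, 11.3, 26.9, 37.3 and 391 CPM, and in the 7 knockout D2 cells at 9.14 and 26.2 CPM in a pair of cells and 0 in the other 5. In the 15 wild-type D1 cells the lowest value was 0, the median 6.81 and the highest 4459 CPM, and in the 26 wild-type D2 cells the lowest and the median were 0 and the highest was 84.2 CPM. All 4 groups overlapped, and each held cells without a read.

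The wild-type D1 cells with Smox had 2.36 (a single read), 6.81, 82.2, 153, 191, 192, 244, 414 and 4459 CPM. The 3 wild-type D2 cells with Smox had 6.84, 74.2 and 84.2 CPM. Thus 6 wild-type D1 cells were above every wild-type D2 cell. Smox was read in 4 of 6 knockout D1 cells (66.7%, 95% Clopper-Pearson interval 22.3 to 95.7%) and in 2 of 7 knockout D2 cells (28.6%, 3.67 to 71%). In wild-type animals it was read in 9 of 15 D1 cells (60%, 32.3 to 83.7%) and in 3 of 26 D2 cells (11.5%, 2.45 to 30.2%). These intervals cover counting error only. Among gene-rich cells the numbers were 4 of 6 knockout D1, 2 of 6 knockout D2, 7 of 9 wild-type D1 cells and 3 of 13 wild-type D2 cells. With each cell thinned to 250000 counts they were 4, 2, 7 and 3 cells of the whole groups.

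Mean Smox was 77.7 ± 154 CPM in knockout D1 (SD, n = 6), 5.05 ± 9.94 in knockout D2 (n = 7), 383 ± 1134 in wild-type D1 (n = 15) and 6.36 ± 21.5 in wild-type D2 cells (n = 26). The cell at 4459 CPM, aged 30 days, held 46.6% of the wild-type D1 Smox reads. Without it the wild-type D1 mean was 91.9 ± 129 CPM (n = 14). In knockout D1 cells 1 cell held 87.4% of the Smox reads.

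Averages over cells on the log2(CPM + 1) scale depend strongly on how many cells had a read. They can overstate as well as understate a difference of mean CPM. Azin1, for example, was 2.16 higher in knockout than wild-type D2 cells, at mean levels of 141 and 140 CPM. On this scale Smox was 3.55 higher in wild-type D1 than in wild-type D2 cells (means 4.15 ± 4.20 and 0.60 ± 1.78, SD). Only 4 of the 11059 measured genes had a larger difference in that direction, a rank that follows from how Smox was picked. A gene counted as measured when its mean was at least 1 CPM and at least 10% of the cells compared had a read. The difference was 4.18 in gene-rich cells, 2.98 without the cell at 4459 CPM and 2.31 without the cells aged 30 days. The 3 wild-type D1 cells of 30 days had 244 to 4459 CPM and all had Smox, against 1 of 7 wild-type D2 cells of that age. At 29 days Smox was read in 3 of 4 wild-type D1 cells and 1 of 6 wild-type D2 cells, at 31 days in 1 of 3 and 0 of 3, and at 34 days in 1 of 2 and 0 of 2.

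The knockout cells had no share in the choice of Smox. There too it was higher in D1 than in D2 cells, by 2.56 on the log2(CPM + 1) scale (means 3.72 ± 3.32 and 1.16 ± 2.02, SD, n = 6 and 7). The difference was 2.36 in gene-rich cells and lay between 1.58 and 3.30 when each knockout cell was left out in turn. The lowest value came without the D1 cell at 391 CPM. A difference smaller than that of Smox was found for 91.3% of 10990 measured genes. All 5 knockout D1 cells and all 7 knockout D2 cells of 32 days can be set side by side, and 4 of 5 and 2 of 7 had Smox.

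Between genotypes Smox differed by less than 1 log2 unit in either kind of cell. Knockout minus wild-type was -0.44 in D1 cells (means 3.72 ± 3.32 and 4.15 ± 4.20) and 0.56 in D2 cells (1.16 ± 2.02 and 0.60 ± 1.78). The D1 value was -1.67 in gene-rich cells, 0.92 without the wild-type cells of 30 days, and 2.73 against the 3 wild-type D1 cells of 31 days alone, so its direction depended on the ages compared. As a ratio of summed counts it was -1.18. The D2 value was 0.15 in gene-rich cells and 0.56 against the 5 wild-type D2 cells of 31 and 32 days, but -0.67 as a ratio of summed counts. With knockout cells of 31 and 32 days alone, genotype and age can hardly be told apart.

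**Figure D1:**
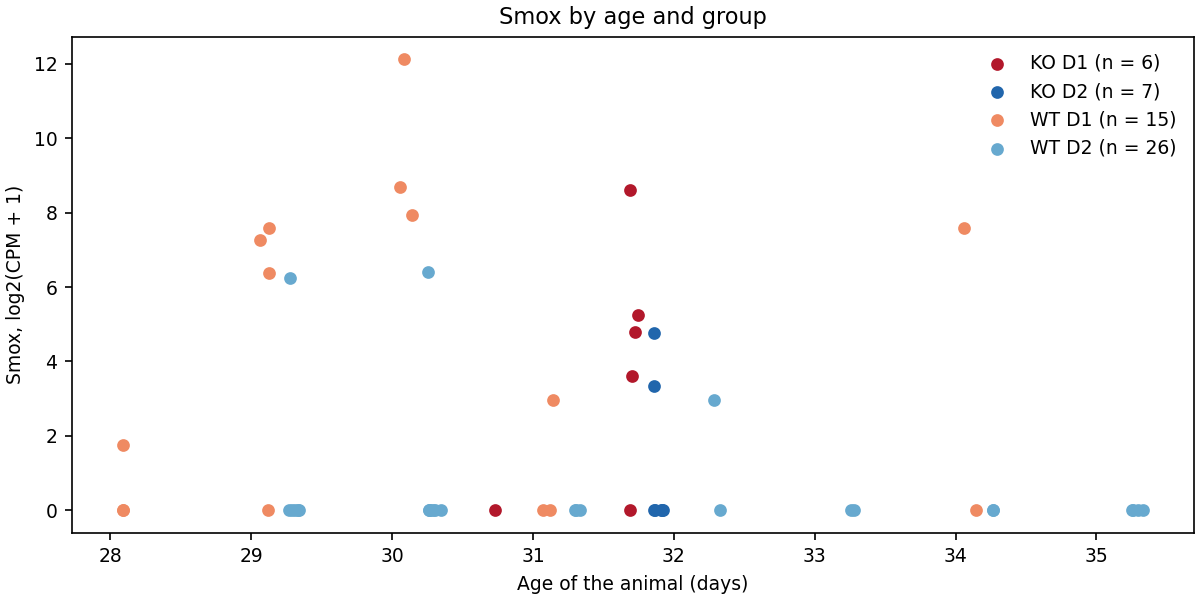
Smox in each cell on the log2(CPM + 1) scale against the age of the animal in days, with points coloured by group and set apart sideways within an age. The wild-type D1 cells of 30 days reach the highest values, while 23 of the 26 wild-type D2 cells lie at 0.

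Markers of microglia also differed between the groups. Their summed level had a median of 439 CPM in knockout D1 (0.453 to 2487), 249 in knockout D2 (39.6 to 3580), 898 in wild-type D1 (0.319 to 10595) and 588 in wild-type D2 cells (0.167 to 5971). All 12 markers were read in each group. Of 11 measured, 10 were above 0 in wild-type D1 minus D2 cells. By at least 1 log2 unit 6 were higher and 1 lower, against 9.21% and 13.2% of all genes. C1qa was read in 1 of 6 knockout D1, 2 of 7 knockout D2, 9 of 15 wild-type D1 cells and 7 of 26 wild-type D2 cells. Within wild-type D1 cells the 9 with Smox had a median marker sum of 766 CPM, against 4074 CPM in the 6 without. In knockout D1 cells the 4 with Smox had a median of 668 CPM, against 168 CPM in the 2 without. In knockout D2 cells the medians were 144 CPM in the 2 with Smox and 560 CPM in the 5 without, and in wild-type D2 cells 237 CPM in the 3 with and 620 CPM in the 23 without. The same sets differed in genes read per cell. Medians with and without Smox were 6137 and 2540.5 genes in wild-type D1 cells, and 8867 and 3724 in wild-type D2 cells. In knockout cells they were 6367 and 7244 for D1, and 6856.5 and 6211 for D2. Of 5 measured oligodendrocyte markers, 5 were below 0 in wild-type D1 minus D2 cells, 2 by at least 1 log2 unit, against 13.2% of all genes. Of 7 measured astrocyte markers, 3 were above 0 there and 4 below. Among markers of inhibitory interneurons, 3 of 3 measured were at least 1 log2 unit lower in knockout D1 than in knockout D2 cells, against 21% of all genes. The median of these 3 was -2.35, and Gad2, Slc32a1, Pvalb and Vip had no read in knockout D1 cells. Vip had none in knockout D2 cells either. In wild-type D1 against D2 cells, 0 of 4 measured interneuron markers were higher or lower by at least 1 log2 unit. Of 12 microglia markers measured in knockout D1 against D2 cells, 2 were higher and 2 lower by that much. Of all genes, 32.9% were higher and 21% lower there. The part of all these markers in the Smox values was not tested.

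Sat1 (chromosome X, 155213132 to 155216449, minus strand) encodes the acetyltransferase of the other breakdown route. It was read in 3 of 6 knockout D1, 3 of 7 knockout D2, 9 of 15 wild-type D1 cells and 11 of 26 wild-type D2 cells. Its lowest value was 0 in each group, its medians were 8.90, 0, 17.5 and 0 CPM in the same order, and its highest values 225, 197, 322 and 1297 CPM. The groups overlapped throughout. Its difference between wild-type D1 and D2 cells was 0.84 over all cells and 3.31 in gene-rich cells, where it was read in 8 of 9 D1 cells and in 7 of 13 D2 cells, and a smaller difference was then found for 99.8% of genes. As a ratio of summed counts it was -0.28. Between knockout D1 and D2 cells it differed by 0.35, and by -0.12 in gene-rich cells. Paox, the oxidase of acetylated polyamines, was read in 0 of 6 knockout D1, 1 of 7 knockout D2, 0 of 15 wild-type D1 cells and 1 of 26 wild-type D2 cells, at no more than 12.3 CPM. The counts of 0 allow shares of up to 45.9% of knockout D1 and 21.8% of wild-type D1 cells.

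The genes of synthesis (Odc1, Amd1, Srm and Sms) were read in 4 of 6 knockout D1 cells each and in 4 to 6 of 7 knockout D2 cells, against 6 to 9 of 15 wild-type D1 and 11 to 14 of 26 wild-type D2 cells. Among gene-rich cells the numbers were 4 of 6 each and 4 to 6 of 6 in the knockout groups, against 5 to 7 of 9 and 9 to 11 of 13 in the wild-type groups, and Srm was then read in a smaller share of the knockout cells (4 of 6 in both groups, against 7 of 9 and 10 of 13). Odc1 (chromosome 12, 17544794 to 17551505, plus strand), encoding ornithine decarboxylase, was at 0, 0, 31, 126, 128 and 169 CPM in knockout D1 cells. In knockout D2 cells it was at 0 in 3 cells and at 8.32, 69.6, 76.3 and 186 CPM in the rest. Wild-type D1 cells had a median of 0 and a highest value of 161 CPM, and wild-type D2 cells a median of 0 and a highest value of 1389 CPM. In D1 cells the difference between knockout and wild-type was 2.25 on the log2(CPM + 1) scale (means 4.40 ± 3.51 and 2.15 ± 2.99). It was 1.19 in gene-rich cells and 0.00 against wild-type cells of 31 days. In D2 cells it was 0.51, and -0.91 in gene-rich cells. Of the 50-base stretches of Odc1, 24.3% also occur in another gene, so part of its counts is uncertain.

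Amd1 (chromosome 10, 40287458 to 40302186, minus strand) encodes S-adenosylmethionine decarboxylase. Its counts are uncertain, since 76.7% of its 50-base stretches also occur in the near-identical Amd2. Amd2 itself never passed 5.84 CPM. Amd1 was at 0, 0, 9.62, 20.9, 47.1 and 197 CPM in knockout D1 cells and at 0, 0, 0.103, 1.69, 2.21, 6.83 and 118 CPM in knockout D2 cells. Its median was 0 in wild-type D1 (highest 151 CPM) and 0.176 in wild-type D2 cells (highest 451 CPM). In D1 cells Amd1 was 1.72 higher in knockout than in wild-type cells, a difference of 0.90 without the knockout cell at 197 CPM and -0.22 as a ratio of summed counts. Knockout D1 cells also exceeded knockout D2 cells by 1.64, or 0.82 without that cell and 2.48 without the D2 cell at 118 CPM.

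Srm (chromosome 4, 148591503 to 148594993, plus strand) encodes spermidine synthase. It was at 0, 0, 41.9, 105, 261 and 343 CPM in knockout D1 cells and at 0, 0, 0.362, 132, 198, 268 and 378 CPM in knockout D2 cells. Medians were 1.78 CPM in wild-type D1 (highest 470) and 0 in wild-type D2 cells (highest 645). Srm was 1.16 higher in knockout than wild-type D1 cells and 1.47 higher in knockout than wild-type D2 cells. Neither direction held in gene-rich cells, where the values were -0.92 and -1.05. Each was also below 1 without some single knockout cell, down to 0.43 in D1 and 0.80 in D2 cells.

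Sms (chromosome X, 157443855 to 157492287, minus strand) encodes spermine synthase. It was at 0, 0, 13, 36.6, 53.9 and 347 CPM in knockout D1 cells, and at 0, 10, 18.8, 51.5, 70.5, 111 and 116 CPM in knockout D2 cells. Its medians were 0 in wild-type D1 (highest 295) and 0.701 CPM in wild-type D2 cells (highest 185). In D2 cells Sms was 2.31 higher in knockout than in wild-type cells (means 4.76 ± 2.45 and 2.45 ± 2.99). This was 1.21 in gene-rich cells, where it was read in 6 of 6 knockout and 11 of 13 wild-type cells, but -0.28 as a ratio of summed counts. In D1 cells the difference was 1.17 over all cells, -0.53 in gene-rich cells, -1.10 as a ratio of summed counts and 0.26 without the knockout cell at 347 CPM. Of its 50-base stretches, 17.5% also occur in another gene, most of them in the pseudogene Sms-ps.

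The antizymes are made only when ribosomes shift reading frame at a conserved site that spermidine and spermine promote. The sites of Oaz1 and Oaz2 are shown, from GENCODE transcripts, because this feature defines the antizymes as sensors of polyamines; capitals mark the shift site.
Oaz1: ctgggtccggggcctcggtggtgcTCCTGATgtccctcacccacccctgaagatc
Oaz2: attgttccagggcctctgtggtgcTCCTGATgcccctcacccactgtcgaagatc
The sequences are the same at 45 of 55 positions, the shift site included. Counts of reads do not show how often the shift took place.

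Oaz1 (chromosome 10, 80826656 to 80829290, plus strand), encoding antizyme 1, was the most widely read of the 9 genes. It was read in 51 of 54 cells and in all 34 gene-rich ones, while the other 8 were read in 18 (Smox) to 35 (Azin1) of 54. It was at 61.6, 99.8, 136, 141, 189 and 437 CPM in knockout D1 cells and at 48.1, 94.8, 369, 433, 645, 647 and 740 CPM in knockout D2 cells. Wild-type D1 cells had a lowest value of 0, a median of 327 and a highest of 1599 CPM, and wild-type D2 cells 0, 232 and 1090 CPM. The ranges of the knockout groups overlapped, though 5 of 7 knockout D2 cells were above 5 of 6 knockout D1 cells. On the log2(CPM + 1) scale knockout D1 minus D2 cells was -1.04 (means 7.20 ± 0.94 and 8.24 ± 1.53), and -0.95 in gene-rich cells. Of its 50-base stretches, 21% also occur in another gene, most of them in the pseudogene Oaz1-ps.

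Oaz2 (chromosome 9, 65668001 to 65690300, plus strand) encodes antizyme 2. It was at 0, 0, 33.4, 82.4, 109 and 267 CPM in knockout D1 cells and at 0, 0, 20.9, 63.2, 182, 213 and 255 CPM in knockout D2 cells. Its medians were 39.9 in wild-type D1 (highest 514) and 1.08 CPM in wild-type D2 cells (highest 499). Wild-type D1 exceeded wild-type D2 cells by 1.66 on the log2(CPM + 1) scale, but by 0.50 in gene-rich cells, where it was read in 8 of 9 and 11 of 13 cells. Without the cells of 31 days the value was 1.03. In D2 cells knockout exceeded wild-type by 2.00, while the value in gene-rich cells was -1.05.

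Azin1 (chromosome 15, 38487427 to 38519266, minus strand) encodes the antizyme inhibitor. It was at 0, 0.26, 3.74, 11.6, 60.4 and 343 CPM in knockout D1 cells and at 0.109, 40.3, 45.7, 54.6, 270, 276 and 299 CPM in knockout D2 cells. Thus 4 of 6 knockout D1 cells lay below 6 of 7 knockout D2 cells. The medians were 0 in wild-type D1 (highest 448) and 6.80 CPM in wild-type D2 cells (highest 1259). Knockout D1 minus D2 cells was -2.46 on the log2(CPM + 1) scale (means 3.43 ± 3.29 and 5.90 ± 2.85), and -3.42 in gene-rich cells. It lay between -3.46 and -1.78 when each knockout cell or age was left out. Of 10990 measured genes, 3.54% had a smaller value. Knockout exceeded wild-type D2 cells by 2.16, and by 1.46 in gene-rich cells, but the ratio of summed counts was -0.38. Of the Azin1 exon bases, 358 overlap the antisense gene Gm49077, and the sources used here do not say whether reads were counted by strand.

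**Figure D2:**
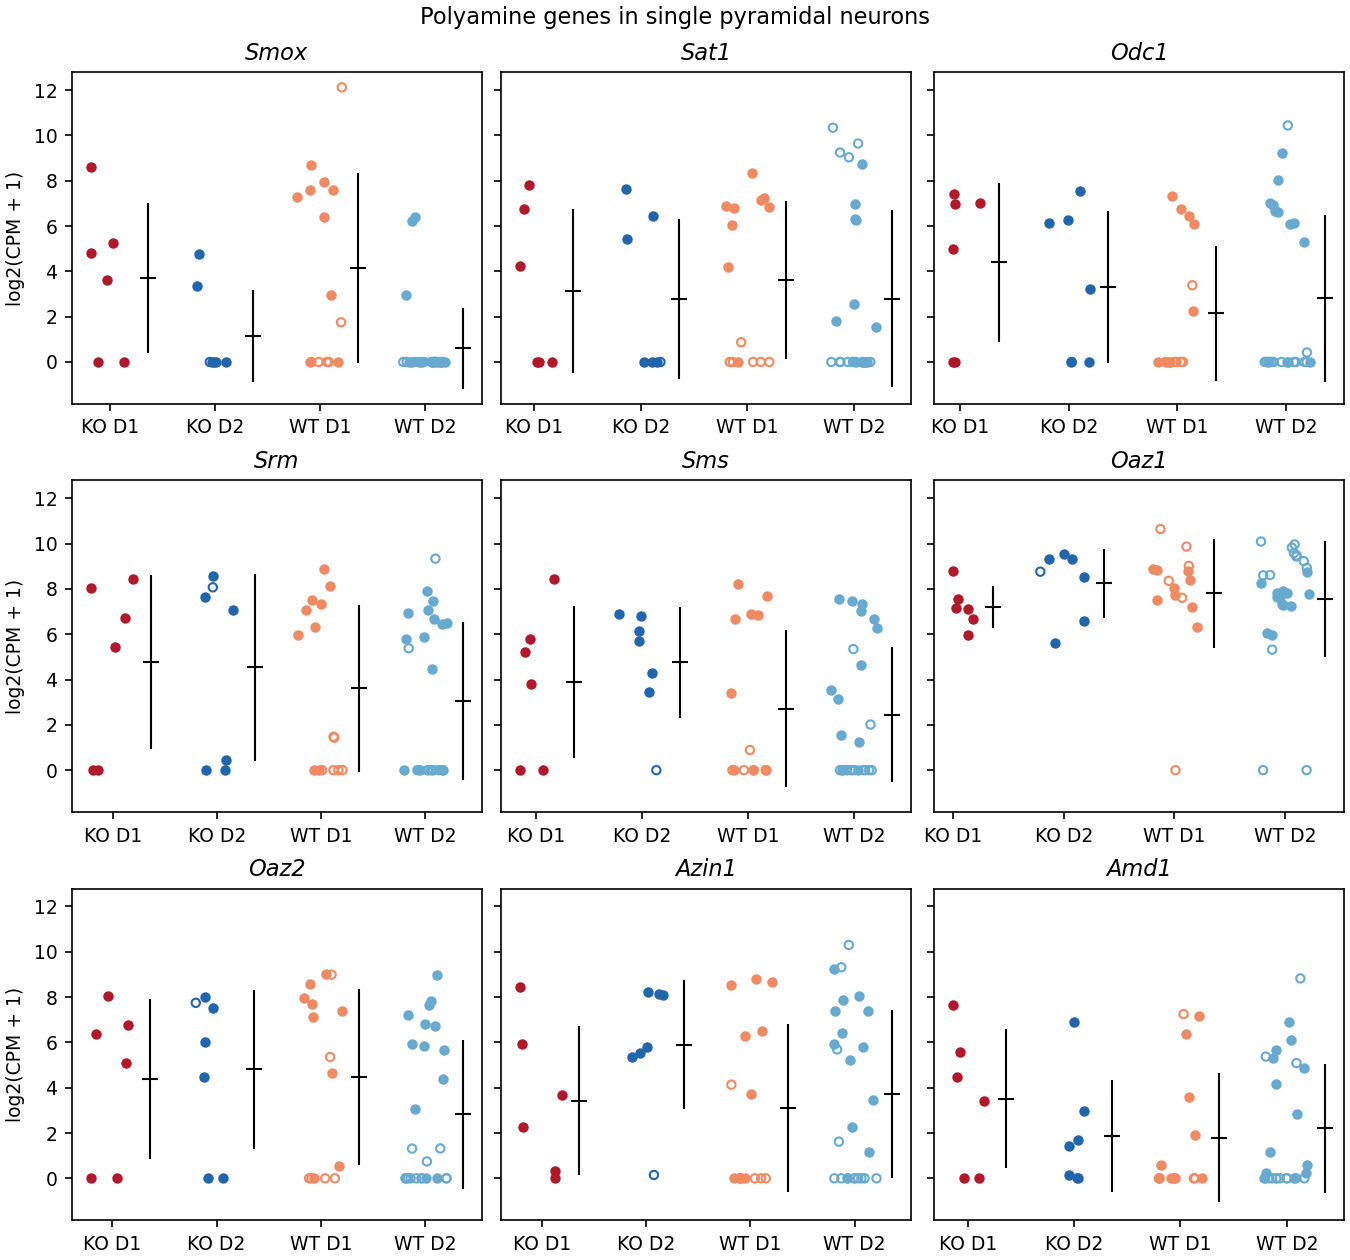
The 9 genes in each cell on the log2(CPM + 1) scale, by group; filled points are gene-rich cells, open points the other cells, and the black mark and line to the right of each group its mean and SD. Oaz1 is above 0 in 51 of 54 cells, while each of the other genes has cells at 0 and cells above 6 in both wild-type groups.

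Per kilobase of exon, mean levels ran highest for Oaz1 in knockout D2, wild-type D1 and wild-type D2 cells, at 166, 160 and 146 CPM per kb. In knockout D1 cells Srm came first at 78.2 and Oaz1 next at 69.4 CPM per kb. By these means, each D1 value resting largely on 1 cell, Smox stood higher in the order in D1 than in D2 cells of both genotypes. It was at rank 6 of 9 in knockout D1 cells at 19.9, last in knockout D2 cells at 1.30, at rank 2 in wild-type D1 cells at 98.4 and last in wild-type D2 cells at 1.63 CPM per kb. No neighbours in any of the 4 orders differed by more than the SD between cells (0 of 32 pairs). The top cell supplied 87.4% of the Smox reads of the knockout D1 group and 46.6% of those of the wild-type D1 group. Leaving out the top wild-type D1 cell took the Smox mean of that group from 383 to 91.9 CPM. The ranks without these top cells were not worked out.

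**Figure D3:**
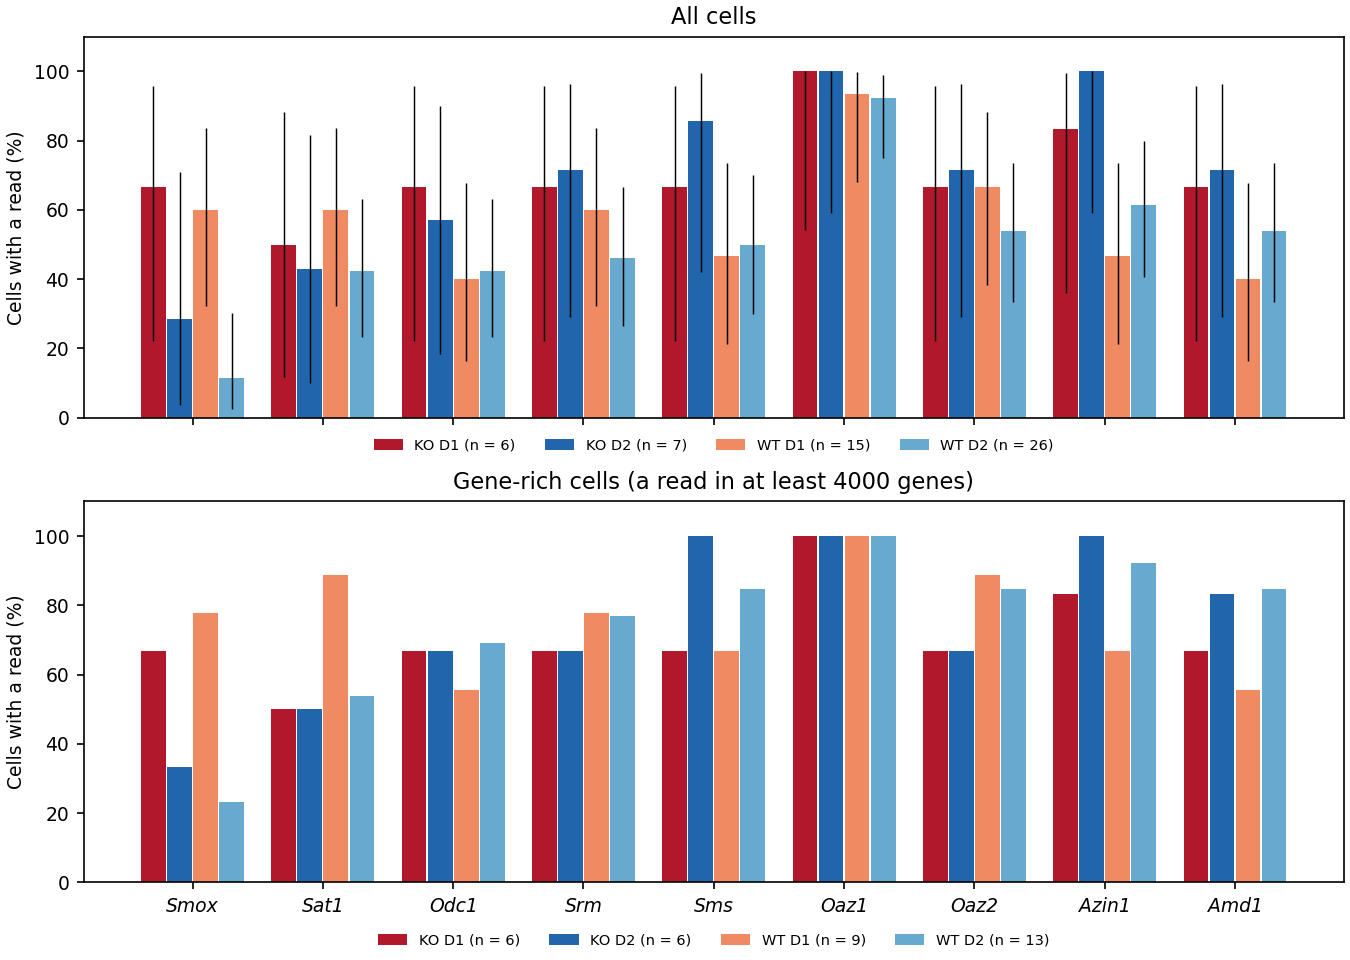
Share of cells (percent) with at least 1 read of each gene in the 4 groups, over all cells with 95% Clopper-Pearson intervals (upper panel) and over gene-rich cells (lower panel). Smox is the gene with the lowest share in wild-type D2 cells, 3 of 26, and 3 of 13 in gene-rich ones.

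Over the 9 genes, calls in each comparison were counted. A call here means a difference of at least 1 on the log2(CPM + 1) scale, and all 9 genes were measured in each comparison. In wild-type D1 against D2 cells 2 of 9 were higher (Smox and Oaz2) and 0 lower, against 9.21% higher and 13.2% lower of all 11059 measured genes. Smox entered by the choice of genes, so nothing is read from this count. In knockout D1 against wild-type D1 cells 4 of 9 were higher (Odc1, Amd1, Sms and Srm) and 0 lower, against 49.6% and 8.02% of 10792 genes. In knockout D2 against wild-type D2 cells 4 of 9 were higher (Sms, Azin1, Oaz2 and Srm) and 0 lower, against 36.4% and 6.91% of 11222 genes. Both counts are near the shares of all genes, of which far more were higher than lower in the knockout cells. In knockout D1 against D2 cells 3 of 9 were higher (Smox, Amd1 and Odc1, the last at 1.09, and at 0.49 to 0.57 without any 1 of 6 cells of the 13) and 2 lower (Azin1 and Oaz1), against 32.9% and 21% of 10990 genes.

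These counts changed with the cells and the measure used. In gene-rich knockout against wild-type D1 cells 2 of 9 were higher (Odc1 and Amd1) and 4 lower (Smox, Sat1, Oaz2 and Azin1), against 29.4% and 22.8% of genes. With summed counts 0 were higher and 4 lower there (Smox, Sms, Oaz2 and Azin1), against 25.8% and 27.6%. In gene-rich knockout against wild-type D2 cells 2 were higher (Sms and Azin1) and 2 lower (Srm and Oaz2), against 14.6% and 31.9%. With summed counts 0 were higher and 1 lower (Sat1), against 15.8% and 38.6%. Over both comparisons with wild-type cells, no higher call was present under all 3 measures.

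In gene-rich wild-type D1 against D2 cells 2 were higher (Smox and Sat1) and 1 lower (Odc1), against 11.3% and 34.6% of genes, and with summed counts only Smox was called, against 18.5% higher and 24.4% lower. In gene-rich knockout D1 against D2 cells 2 were higher (Smox and Amd1) and 2 lower (Sms and Azin1), against 27.6% and 26.1%. With summed counts 2 were higher (Smox and Amd1) and 1 lower (Oaz1), against 37.6% and 24.8%. Smox was thus called higher in D1 than in D2 cells of both genotypes under all 3 measures. In wild-type cells these calls follow from how Smox was picked, and the 3 measures share cells. In knockout cells a higher call was common, at 27.6% to 37.6% of all genes, and 1 D1 cell held 87.4% of the Smox reads.

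The median differences of the 9 genes were 0.25, 0.33, 0.68 and 0.23 in the same 4 comparisons, beside medians of all measured genes of -0.14, 0.98, 0.56 and 0.29. In gene-rich cells they were 0.47, -0.92, 0.15 and 0.06, beside -0.50, 0.14, -0.39 and 0.02. Between the D1 and D2 comparisons of the 2 genotypes, which share no cell, 4 of 9 genes had the same sign (Smox, Sat1, Srm and Azin1), against 48.6% of 10185 genes measured in both.

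**Figure D4:**
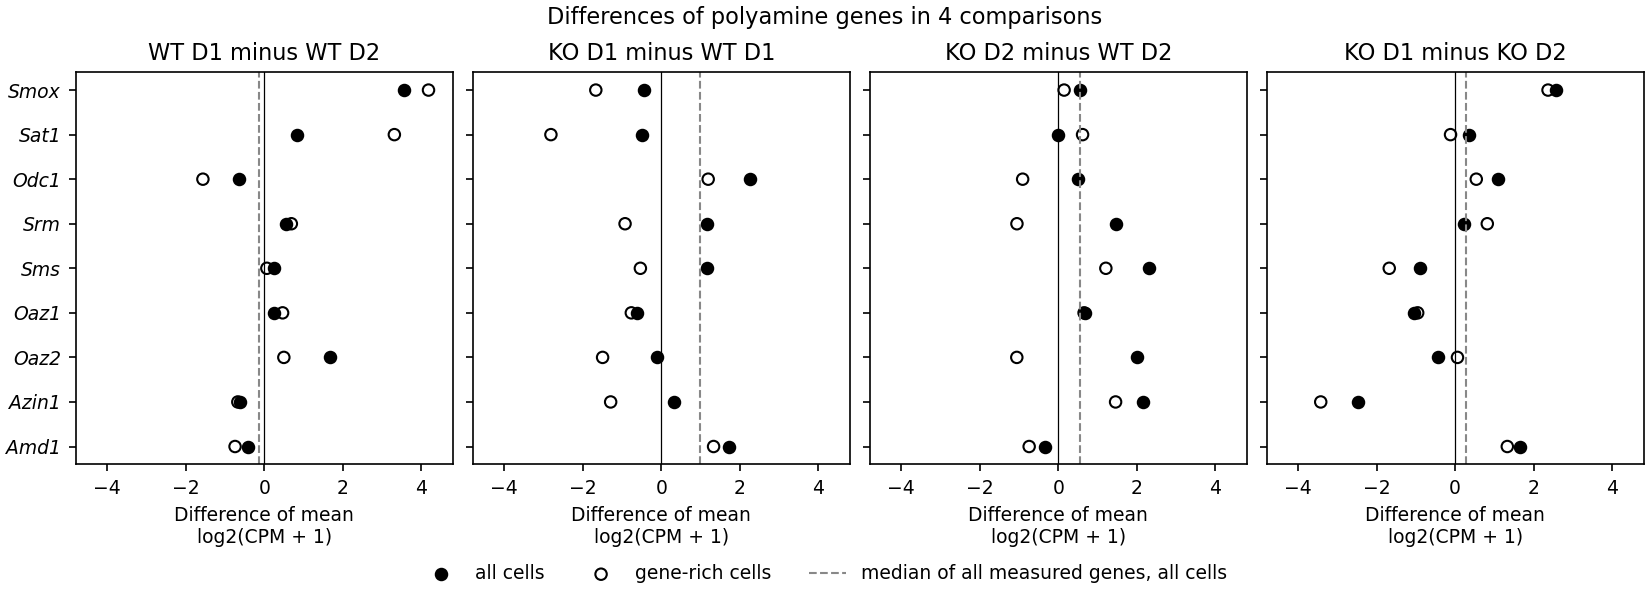
Difference of the mean log2(CPM + 1) of each gene in 4 comparisons, over all cells (filled) and gene-rich cells (open), with the median of all measured genes over all cells as a dashed line. Smox lies at 3.55 and 2.56 in the D1 minus D2 comparisons, and several open points cross 0 in the comparisons of knockout with wild-type.

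Other genes of the pathway were taken as lists, and those named below with fewer than 6 to a count were named after their values were seen. Of 16 wider polyamine genes, 10 were measured in wild-type D1 against D2 cells. By at least 1 log2 unit 0 were higher and 1 lower, against 9.21% and 13.2% of all genes. The lower one was Adi1 at -1.05, an enzyme of methionine salvage, which recycles the by-product of spermidine and spermine synthesis. Of 9 measured in knockout against wild-type D1 cells, 4 were higher and 1 lower, near the 49.6% and 8.02% of all genes. The higher genes were Mat2a at 3.90 and Mat2b at 1.54, the catalytic and regulatory subunits of the enzyme that makes S-adenosylmethionine, with Enoph1 at 3.10 and Apip at 2.00, both of methionine salvage. The lower one was Arg2 at -2.35, the mitochondrial arginase that makes ornithine.

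In D2 cells 3 of 10 were higher in knockout than in wild-type, namely Enoph1 at 1.88, Mat2b at 1.42 and Arg2 at 1.19, and 1 was lower, Azin2 at -1.12, against 36.4% and 6.91% of all genes. In gene-rich cells Mat2b was -0.15 in the D1 and -0.02 in the D2 comparison, and Enoph1 1.73 and -0.06. Mat2a was 1.58 and Apip 0.47 in gene-rich D1 cells, Arg2 was -2.61 there and 0.57 in gene-rich D2 cells, and Azin2 was -2.43 in gene-rich D2 cells. Mat2a was read in all 6 knockout D1 cells (mean 819 ± 180 CPM, SD), against 11 of 15 wild-type D1 cells (550 ± 947 CPM). Knockout D1 and D2 cells differed by -2.69 in Arg2, read in 3 of 6 and 6 of 7 cells. The other calls there were Mat2a at 2.94 and Apip at 1.62 higher, and Adi1 at -1.99 and Ahcy at -1.05 lower, so 2 of 10 were higher and 3 lower, against 32.9% and 21% of all genes.

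Of 8 genes of polyamine transport, 5 were measured. Atp13a2, the lysosomal pump that exports polyamines into the cytosol, was the only call in wild-type D1 against D2 cells, at -1.28. Of all genes, 13.2% were lower there. Atp13a2 stood at -3.35 in gene-rich cells. It was 4.03 higher in knockout than wild-type D1 cells (means 6.52 ± 3.33 and 2.49 ± 3.41), and 2.47 higher in gene-rich cells. In D2 cells it was 2.64 higher in knockout cells, but -1.33 in gene-rich cells. With Atp13a3 and Slc7a5, 3 of 5 were higher in knockout D1 cells, and with Slc3a2 and Slc18b1, 3 of 5 in knockout D2 cells, with 0 lower in each, against 49.6% and 36.4% of all genes higher. In gene-rich cells Atp13a3 was 2.92 and Slc7a5 0.89 in the D1 comparison. Slc18b1 was 1.08 and Slc3a2 -0.23 in the D2 comparison, where the median of the list was -0.91, beside -0.39 over all genes. Between knockout D1 and D2 cells 1 was higher, Atp13a3 at 2.60, and 0 lower, against 32.9% and 21% of all genes.

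Spermidine is also the source of hypusine, the modified amino acid that Dhps and Dohh build into the translation factor eIF5A. Eif5a was lower in wild-type D1 than in D2 cells, at -2.04, the only call among 4 measured, against 13.2% of all genes lower. It was read in 10 of 15 and 25 of 26 cells, and in gene-rich cells, all of which had it, the value was 0.71. In knockout against wild-type D1 cells 2 of 3 were higher (Eif5a at 2.49 and Dhps at 1.23), against 49.6% of all genes, and both were below 0 in gene-rich cells, at -0.46 and -0.44. In knockout against wild-type D2 cells 2 of 4 were higher, Dohh at 3.01 and Dhps at 1.12, against 36.4% of all genes, with gene-rich values of 0.33 and -0.40. Dohh was lower in knockout D1 than D2 cells, at -2.29, the only call of 3, against 21% of all genes lower.

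Of the 4 genes of Kir2 potassium channels, which spermine blocks, 3 were measured in wild-type D1 against D2 cells. Of these 0 were higher and 1 lower, against 9.21% and 13.2% of all genes. The lower one was Kcnj12 at -1.21, read in 1 of 15 D1 cells and in 7 of 26 D2 cells, and it was -2.53 in gene-rich cells. In knockout against wild-type D1 cells both measured genes were higher, Kcnj12 at 2.17 and Kcnj4 at 1.64, against 49.6% of all genes higher. Their gene-rich values were 1.96 and 1.02, against 29.4% of all genes higher among those cells. With summed counts only Kcnj12 was called, against 25.8% higher. Kcnj12 was read in 2 of 6 knockout D1 cells, 1 of which held 84.5% of the reads, and in 1 of 15 wild-type D1 cells. In D2 cells 0 of 3 were called, against 36.4% of all genes higher and 6.91% lower. Kcnj4 was 1.01 higher in knockout D1 than D2 cells, 1 of 2 measured, against 32.9% of all genes higher.

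Enzymes that remove hydrogen peroxide and aldehydes, the by-products of spermine oxidation, were taken as a list of 12. In wild-type D1 against D2 cells 2 of 11 measured were higher and 1 lower, against 9.21% and 13.2% of all genes. In gene-rich cells 5 were higher and 1 lower, against 11.3% and 34.6%. Prdx1, a peroxiredoxin that reduces peroxide, was read in 14 of 15 D1 cells and in 17 of 26 D2 cells, at medians of 753 and 92.5 CPM. Its difference of 3.57 (means 8.22 ± 2.80 and 4.65 ± 3.93) was at rank 3 of 11059 genes and was 2.25 in gene-rich cells. Gpx1, a glutathione peroxidase, differed by 2.59, and by 2.08 in gene-rich cells. Aldh2, a mitochondrial aldehyde dehydrogenase, was lower at -1.34, read in 2 of 15 D1 cells and in 11 of 26 D2 cells, and was -0.84 in gene-rich cells. Microglia markers had a median difference of 1.07 in the same comparison, beside -0.14 over all genes. Their part in these values was not tested.

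In knockout against wild-type D1 cells 5 of 11 were lower and 2 higher, against 8.02% and 49.6% of all genes. The lower genes were Prdx1 at -3.01, Prdx6 at -2.60, Gpx1 at -1.70, Prdx2 at -1.68 and Cat, encoding catalase, at -1.05, and their values in gene-rich cells were -4.68 (Prdx6) to -1.32 (Cat). Prdx5 at 1.82 and Aldh9a1 at 1.26 were higher, and were -0.56 and 0.98 in gene-rich cells. Among gene-rich cells 6 of 11 were lower and 0 higher, against 22.8% and 29.4% of all genes. The wild-type D1 cells used here are those in which Prdx1 and Gpx1 stood above wild-type D2 cells, so the comparisons are not independent. The median of the list was -0.57, beside 0.98 over all genes. Microglia markers moved with it, with 4 of 11 lower and 1 higher and a median of -0.58. Their part in these values was not tested.

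In knockout against wild-type D2 cells 3 of 11 were higher (Prdx3 at 1.89, Prdx1 at 1.29 and Prdx5 at 1.29) and 2 lower (Aldh2 at -1.94 and Aldh9a1 at -1.36), against 36.4% and 6.91% of all genes. In gene-rich cells Prdx1 was 1.20, Prdx3 -0.35, Prdx5 0.25, Aldh2 -2.05 and Aldh9a1 -2.47. In knockout D1 against D2 cells 1 of 10 was higher (Aldh9a1 at 1.68) and 3 lower (Prdx3 at -3.01, Prdx2 at -2.38 and Prdx6 at -1.99), against 32.9% and 21% of all genes. Prdx1 was -0.73 there, and -1.73 in gene-rich cells, and Gpx1 was 0.16, and 0.80 in gene-rich cells. A relation of these values to Smox was not tested.

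The genes most like Smox across cells were sought by Pearson's r of log2(CPM + 1) over the 54 cells, among 9625 genes with a mean of at least 10 CPM. The cells share groups and depth, and many are at 0 for any gene, so the values are a description. The 5 highest were Tceal1 at 0.60, Cbx1 at 0.59, B3gat3 at 0.56, Wbp1 at 0.51 and Ak4 at 0.50. B3gat3 encodes a glucuronosyltransferase of proteoglycan linkers, Cbx1 a heterochromatin protein and Ak4 a mitochondrial adenylate kinase. B3gat3 was read in 15 of the 18 cells with Smox and had r = 0.63 over the 34 gene-rich cells, while the other 4 lay between 0.22 and 0.40 there. The 8 other polyamine genes had r between -0.04 (Odc1) and 0.19 (Sms) with Smox. Sat1 was read in 7 of the 9 wild-type D1 cells with Smox and in 2 of the 6 without, and in 1 of 3 and 10 of 23 wild-type D2 cells. In knockout cells the numbers were 2 of 4 and 1 of 2 for D1, and 0 of 2 and 3 of 5 for D2 cells. Gene-rich cells likewise numbered 7 of 9 and 2 of 6 in the wild-type D1 sets, and 3 of 3 and 10 of 23 for D2. In the knockout sets they numbered 4 of 4 and 2 of 2 for D1, and 2 of 2 and 4 of 5 for D2. Sat1 was read in 8 of 9 gene-rich wild-type D1 cells. The part of the number of genes read in these counts was not tested.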

How the data were processed

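Single-cell total RNA was made into libraries with Nextera XT, per the labels' protocols. The submitters' processing notes name Trimmomatic, STAR, featureCounts and the build GRCm38; settings and the use of strand are unknown here. Values deposited by the authors are whole read counts per gene, without molecular identifiers. A normalized signal table, also deposited, holds each cell's counts times 1 factor (0.373 to 51.5). Among the columns of each table, 2 match no label and were not used. A knockout D1 cell labelled as failed was left out.

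CPM, log2(CPM + 1) means and their differences were computed in Python 3.11.15 (numpy 2.4.6, pandas 2.3.3, scipy 1.17.1, matplotlib 3.10.9), and TMM factors with edgeR 4.0.16 in R 4.3.3. The computation was checked on simulated counts with known changes in better-read genes. No extra zeros were added there, so the check does not cover genes without a read in many cells. Positions, exon lengths and shared 50-base stretches come from GENCODE vM21, of the same build. Alternatives were pseudocounts of 0.1 and 10 CPM, TMM, library sizes without mitochondrial and ribosomal RNA genes, the deposited normalized values, Ensembl counts, no filter, gene-rich cells, wild-type cells of 31 and 32 days, summed counts, thinned counts or at least 10 counts for shares of cells, and each cell or age left out. The members and lists were chosen with earlier results of these data known. All 9 members, Fmr1 and the 5 genes most like Smox are named. Of the lists, genes at least 1 log2 unit apart in wild-type D1 against D2 cells or in both knockout comparisons are named, and others only where said.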

Additional observations from a re-analysis of the deposited data

Results flagged for a closer look

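Within the groups of 4 to 10 cells, 2 of 18 examined held 1 cell far from the others by Dixon's criterion, which chance alone gives in about 1 of 20 groups. In knockout D2 cells the lowest Azin1 value stood apart, at 0.15 on the log2(CPM + 1) scale in the fifth cell, the only one of the 7 that was not gene-rich. Also in knockout D2 cells the highest Amd1 value stood apart, at 6.89 in the third cell, which held 88.8% of the Amd1 reads of that group.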

How the results depend on the processing

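No paired analysis was possible because the labels give no replicate number and name no animal. The number of the 9 genes at least 1 log2 unit apart was 2 in wild-type D1 against D2 cells, but 4 with a pseudocount of 0.1 CPM, 5 with the authors' normalized values and 1 with summed counts. It was 4 in knockout against wild-type D1 cells, but 1 with a pseudocount of 10 CPM, and 4 lower in place of 4 higher with summed counts. It was 4 in knockout against wild-type D2 cells, but 1 with summed counts. It was 5 in knockout D1 against D2 cells, but 3 with a pseudocount of 10 CPM or summed counts. Leaving out each cell or age gave 2 to 4, 2 to 9, 3 to 5 and 3 to 6 in the same order, the 9 when only 1 knockout D1 cell was left. For Smox the ranges were 2.31 to 4.45, -4.15 to 0.92, -0.04 to 0.79 and 1.58 to 3.30, the -4.15 again from that single cell. Among differences of at least 1 over all cells, the sign turned in gene-rich cells for Srm (-0.92) and Sms (-0.53) in knockout against wild-type D1 cells, and for Srm (-1.05) and Oaz2 (-1.05) in D2 cells. With summed counts it turned, under the same limit, for Srm (-0.17), Sms (-1.10) and Amd1 (-0.22) in D1 cells and for Sms (-0.28) and Azin1 (-0.38) in D2 cells. Smaller differences included, 0, 3, 4 and 2 of the 9 signs turned in gene-rich cells and 2, 4, 4 and 2 with summed counts, in the order of the comparisons above. The cause was not tested. TMM, Ensembl counts and library sizes without mitochondrial and ribosomal RNA genes moved none of their 40 values each past the spread or turned a sign. Few cells, unnamed animals and reads in under 35 of 54 cells for most genes limit every value.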
